A study of Sus scrofa with 24 samples.

Results

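Adipocytes of the intramuscular (IMF) and subcutaneous (BF) depots of the pig were compared on the fourth day of differentiation, at the level of microRNAs (miRNAs). The deposited table lists 1587 miRNA entries, 363 of them known pig miRNAs and 1224 newly predicted by the authors. The comparison kept 430 of them, 270 known and 160 new, whose level averaged 1 TPM or more across the series. TPM stands here for the reads of an entry per 1000000 reads assigned to miRNAs in that library, and the series has 24 libraries. The values just inside this limit were 1.002 for novel_miR_994, 1.006 for ssc-miR-10383 and 1.008 for novel_miR_492, and those just outside it were 0.990 for novel_miR_207, 0.988 for ssc-miR-184 and 0.979 for novel_miR_1012. Of the 430 entries, 363 reached a mean of 1 TPM in both groups, 47 in BF-4d only, 11 in IMF-4d only and 9 in neither, so that an entry of the last 3 kinds entered through the group or the days on which it was high.

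Each group held 3 libraries. Preadipocytes were released with collagenase from back subcutaneous fat (BF) or from the longissimus dorsi, the long muscle of the back (IMF), of Yorkshire piglets 6 days old. Both were first grown until nearly confluent, then given an adipogenic cocktail of IBMX, dexamethasone and insulin for 2 days. They were kept with insulin for 2 more days and in growth medium after that, so the days compared also differ in medium. Both were untransformed primary cultures with no transgene or gene edit. The remaining libraries of the series are the same cells on days 0, 2 and 8, with 3 libraries per group. Each culture held whatever cells the digestion released, and in such bulk samples fewer cells of a type and less RNA per cell cannot be told apart. The labels do not tie a library to a piglet, so the p-values below measure the spread between these libraries.

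A miRNA is a short RNA that guides a silencing complex to messenger RNAs, and its target choice rests mostly on the seed, the bases from position 2 to 8. Many miRNAs are cut from shared primary transcripts, so that neighbours on a chromosome are often made together, while members of a family share a seed but can come from different loci. Fat-cell differentiation is known to be tuned by miRNAs on both sides: miR-143, miR-30 and miR-378 have been tied to adipogenesis, whereas miR-27, miR-130, miR-221 and miR-222 have been tied to its restraint. Fat depots also keep the HOX code of the body region they come from, and some miRNAs lie inside the HOX gene clusters.

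The mature sequences of the miRNAs on which the results turn are given here as the study's list of miRNAs has them, 5′ to 3′ with the seed in capitals. The first set holds miRNAs that were higher in IMF-4d, and shows that the miR-196 pair shared a seed whereas the imprinted-domain miRNAs below it did not share one.
ssc-miR-196b-5p: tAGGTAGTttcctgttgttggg
ssc-miR-196a: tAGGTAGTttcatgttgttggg
ssc-miR-187: tCGTGTCTtgtgttgcagccgg
ssc-miR-381-3p: tATACAAGgacaagctctctgt
ssc-miR-411: aTGTAACAcggtccactaac
ssc-miR-758: tTTGTGACctggtccactaac
novel_miR_716: aAACAAACatggtgcacttctt
novel_miR_638: aAACATTCgcggtgcacttctt
novel_miR_461: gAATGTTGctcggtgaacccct

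The second set holds miRNAs called lower in IMF-4d with TPM. Beside them stand seed-sharing relatives not called with TPM, namely ssc-miR-10b, ssc-miR-30e-5p, ssc-miR-146b, ssc-miR-199a-5p and ssc-let-7i-5p. With the median-of-ratios scaling described below, ssc-miR-199b-5p was not called and ssc-miR-199a-5p was called higher.
ssc-miR-10a-5p: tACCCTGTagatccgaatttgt
ssc-miR-10b: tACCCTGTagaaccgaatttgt
ssc-miR-221-3p: aGCTACATtgtctgctgggttt
ssc-miR-222: aGCTACATctggctactgggtctc
ssc-miR-30b-5p: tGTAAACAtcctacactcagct
ssc-miR-30d: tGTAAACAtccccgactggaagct
ssc-miR-30e-5p: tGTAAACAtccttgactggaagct
ssc-miR-146a-5p: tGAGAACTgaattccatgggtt
ssc-miR-146b: tGAGAACTgaattccataggc
ssc-miR-199a-5p: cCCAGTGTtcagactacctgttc
ssc-miR-199b-5p: cCCAGTGTttagactatctgtt
ssc-let-7a: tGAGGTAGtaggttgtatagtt
ssc-let-7i-5p: tGAGGTAGtagtttgtgct
ssc-miR-424-5p: cAGCAGCAattcatgttttgaa
ssc-miR-132: tAACAGTCtacagccatggtcg
ssc-miR-212: aCCTTGGCtctagactgcttact
ssc-miR-138: aGCTGGTGttgtgaatcaggc
ssc-miR-210: cTGTGCGTgtgacagcggctga

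Intramuscular adipocytes carried fewer miRNAs at higher levels than at lower levels. An entry was called a DE-miRNA (differentially expressed miRNA) at a Benjamini-Hochberg adjusted p under 0.05 over the 430 entries, by limma on log2(TPM + 1), together with a fold change above 1.5. Of the 430 entries 156 (36.3%) were called, 32 (7.44%) higher and 124 (28.8%) lower in IMF-4d. The libraries of the 2 groups did not overlap for 216 entries (50.2%), with IMF-4d above for 39 (9.07%) and BF-4d above for 177 (41.2%). With 3 libraries against 3 an exact permutation test of a single entry cannot go below 0.1, so single entries rest on the fit over all of them.

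The balance of the 2 directions depended on the scaling. TPM forces each library to the same total, and the 10 most abundant entries took 87.7, 86.2 and 87.4% of that total in the BF-4d libraries and 92.0, 92.4 and 91.1% in the IMF-4d libraries. The median log2 fold change of all entries was -0.34. Median-of-ratios scaling, which sets the typical entry equal, brought that median to -0.00057 and gave 120 calls (27.9%), 52 (12.1%) higher and 68 (15.8%) lower. Higher calls were thus 20.5% of all calls with TPM and 43.3% with the other scaling. A total of 100 entries (23.3%) were called the same way with both, 32 higher and 68 lower. The factors of this scaling were 1.16, 1.20 and 1.12 for BF-4d and 0.865, 0.811 and 0.913 for IMF-4d. It therefore moved fold changes towards IMF-4d, and a call already higher with TPM could hardly be lost. That all 32 remained is thus no check, and only the lower calls were put to one.

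**Figure D1:**
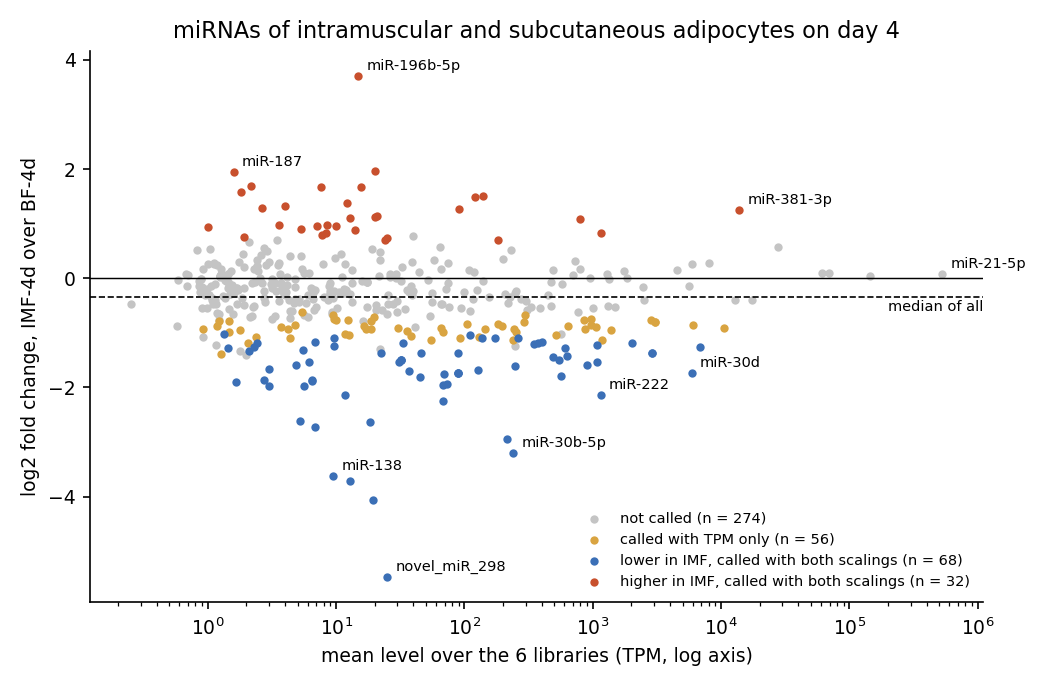
The mean level of each of the 430 entries over the 6 day 4 libraries (x axis, TPM on a log scale) is plotted against its log2 fold change of IMF-4d over BF-4d on the log2(TPM + 1) scale (y axis); colours mark the calls and the dashed line the median of all entries. Most of the cloud lies below 0, ssc-miR-196b-5p stands alone at the top with 3.71, and novel_miR_298 lies lowest at -5.48.

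The 4 most abundant miRNAs were not called with either scaling. ssc-miR-21-5p, a miRNA of many proliferating and mesenchymal cells, made up 51.3, 49.0 and 55.1% of the BF-4d libraries and 56.1, 53.7 and 53.0% of the IMF-4d libraries. Its log2 fold change was 0.07 (limma adjusted p = 0.676). The values for ssc-miR-148a-3p, ssc-miR-143-3p and ssc-let-7i-5p were 0.04 (limma adjusted p = 0.857), 0.09 (0.734) and 0.10 (0.652), and the libraries of the 2 groups overlapped for each. ssc-miR-100 lay at 0.57 (limma adjusted p = 0.0536) and was called higher in IMF-4d with median-of-ratios scaling only. Of the 38 entries at 1000 TPM or above on average, 2 were called higher and 16 lower, and of the 211 entries under 10 TPM 14 were called higher and 38 lower. With median-of-ratios scaling these counts were 6 higher and 8 lower among the former and 20 higher and 21 lower among the latter.

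On the log2(TPM + 1) scale the largest difference towards IMF-4d was that of ssc-miR-196b-5p, a miRNA encoded within a HOX gene cluster that represses posterior HOX genes. Its levels were 0.703, 1.38 and 1.80 TPM in the BF-4d libraries and 31.1, 26.7 and 27.4 TPM in the IMF-4d libraries. The groups lay far apart, with means of 1.29 ± 0.551 and 28.4 ± 2.34 TPM (SD, n = 3 each) and a log2 fold change of 3.71 ± 0.24 (SE, limma adjusted p = 4.45e-07). Its mature sequence matched Sscrofa11.1 once, at chr18:45404329-45404350 on the plus strand, opposite an exon of a long non-coding RNA. ssc-miR-196a, with the same seed but copies on chromosomes 5 and 12, lay at 0.234, 0.529 and 0.449 TPM in BF-4d and at 3.29, 3.03 and 3.31 TPM in IMF-4d. Its log2 fold change was 1.59 ± 0.25 (limma adjusted p = 0.000492).

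The miR-10 members of the HOX clusters did not move with miR-196. ssc-miR-10a-5p lay at 9458, 13539 and 6191 TPM in BF-4d and at 3558, 4214 and 3915 TPM in IMF-4d, all of the latter below the former. It was lower in IMF-4d by a log2 fold change of -1.25 ± 0.25 (limma adjusted p = 0.00234). ssc-miR-10b, which has the same seed, lay at 16141, 30859 and 13205 against 11880, 19562 and 12288 TPM, and these ranges overlapped (-0.40, limma adjusted p = 0.319). ssc-miR-615, also of a HOX cluster, gave 0.08 (limma adjusted p = 0.820). In all, 2 of the 6 HOX entries tested were called higher and 2 lower with TPM (7.44% and 28.8% of all entries), and 2 higher and 1 lower with median-of-ratios scaling (12.1% and 15.8% of all entries). The lower ones were the 5p and 3p arms of ssc-miR-10a, of which the 3p arm was not called after median-of-ratios scaling.

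ssc-miR-187, encoded at chr6:119674891-119674912, was close to absent from BF-4d. It had 0, 2 and 0 reads in the BF-4d libraries and 37, 45 and 33 reads in the IMF-4d libraries, which is 0, 0.212 and 0 TPM against 3.29, 2.90 and 3.12 TPM. Its log2 fold change was 1.94 ± 0.26 (limma adjusted p = 0.000280), a value that the pseudocount of 1 TPM holds down. The ratio of the pooled reads was 44.8, with a 95% exact interval of 12.1 to 375 that covers counting error only.

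The miRNAs of the DLK1-DIO3 domain, an imprinted region whose non-coding RNAs are made from the maternal chromosome, were higher in intramuscular adipocytes as a group. Of the 13 known members tested, 11 were called higher with either scaling, and none lower. Over all entries, 7.44% were called higher with TPM and 12.1% with median-of-ratios scaling. Their median log2 fold change was 0.96, beside -0.34 for all entries. The exceptions were ssc-miR-136-5p at 0.31 and ssc-miR-382 at 0.45. The summed level of the list ran from 8576 to 9859 TPM in BF-4d and from 19082 to 23481 TPM in IMF-4d, and most of it came from 1 miRNA. That miRNA, ssc-miR-381-3p, lay at 8787, 8124 and 7647 TPM in BF-4d and at 20013, 21775 and 16772 TPM in IMF-4d. Its log2 fold change was 1.25 ± 0.17 (limma adjusted p = 0.000280), and it was the only one of the 10 most abundant entries called higher in IMF-4d with TPM.

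The other members were less abundant and lay the same way. ssc-miR-127, processed from a transcript that runs antisense to RTL1, lay at 829, 896 and 766 TPM against 1348, 1296 and 1811 TPM (0.82 ± 0.22, limma adjusted p = 0.00940). ssc-miR-758 lay at 64.6, 61.5 and 61.6 TPM in BF-4d, a narrow range, and at 160, 171 and 206 TPM in IMF-4d (ratio of the means 2.87, limma adjusted p = 0.000364). The levels of ssc-miR-411 were 7.38, 7.51 and 5.83 TPM against 20.3, 24.2 and 28.6 TPM (1.68 ± 0.23, limma adjusted p = 0.000280). The BF-4d libraries of ssc-miR-370 spread most, with 99.8, 48.3 and 26.3 TPM against 149, 104 and 119 TPM, and its call (1.27 ± 0.38, limma adjusted p = 0.0197) was lost without BF-4d replicate 3 (0.81), IMF-4d replicate 1 (1.13) or IMF-4d replicate 3 (1.28).

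Newly predicted entries in the same region were found by matching the mature sequences to the genome. Of the 430 entries, 336 had a sequence in the study's list (266 known and 70 new), and 256 matched Sscrofa11.1 exactly once. In this assembly the region is split between chr7:121697847-121736962 and an unplaced scaffold, where ssc-miR-381-3p lies, between bases 30049 and 70551. Counting all single-copy entries within 100 kb, 21 were tested, 12 known and 9 new. Of these 21, 16 were called higher with TPM and 17 with median-of-ratios scaling, beside 7.44% and 12.1% of all entries. With TPM 0 were called lower (0 as well at an unadjusted limma p under 0.05, with edgeR or with DESeq2). The IMF-4d libraries lay above those of BF-4d for 17 (9.07% of all entries), and the median log2 fold change was 0.96. Of the 9 new entries on the scaffold 6 were called higher with TPM (7.44% of all entries), namely novel_miR_638, novel_miR_716, novel_miR_2, novel_miR_966, novel_miR_461 and novel_miR_1112. The call of novel_miR_2 was lost without BF-4d replicate 2 (0.66) or IMF-4d replicate 1 (0.60), and that of novel_miR_966 without BF-4d replicate 2 or 3 (0.86 and 0.59) or IMF-4d replicate 1 or 3 (0.64 and 0.68).

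The new entries reached differences as large as those of their known neighbours. novel_miR_716, at 9.60, 8.36 and 5.30 TPM in BF-4d and 26.6, 35.1 and 36.3 TPM in IMF-4d, had a log2 fold change of 1.97 ± 0.26 (limma adjusted p = 0.000280), the highest of the 21. novel_miR_461, the most abundant of the new ones, lay at 93.1, 96.2 and 39.2 against 199, 206 and 200 TPM (ratio of the means 2.65, limma adjusted p = 0.00276). Of the others on the scaffold, novel_miR_1205, novel_miR_507 and ssc-miR-382 gave 0.30, 0.41 and 0.45 and were not called with TPM, and novel_miR_683 at the far end gave -0.19. In all, 21 of the 256 single-copy entries were called higher in IMF-4d, and 16 of these lay at the positions of this region.

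**Figure D2:**
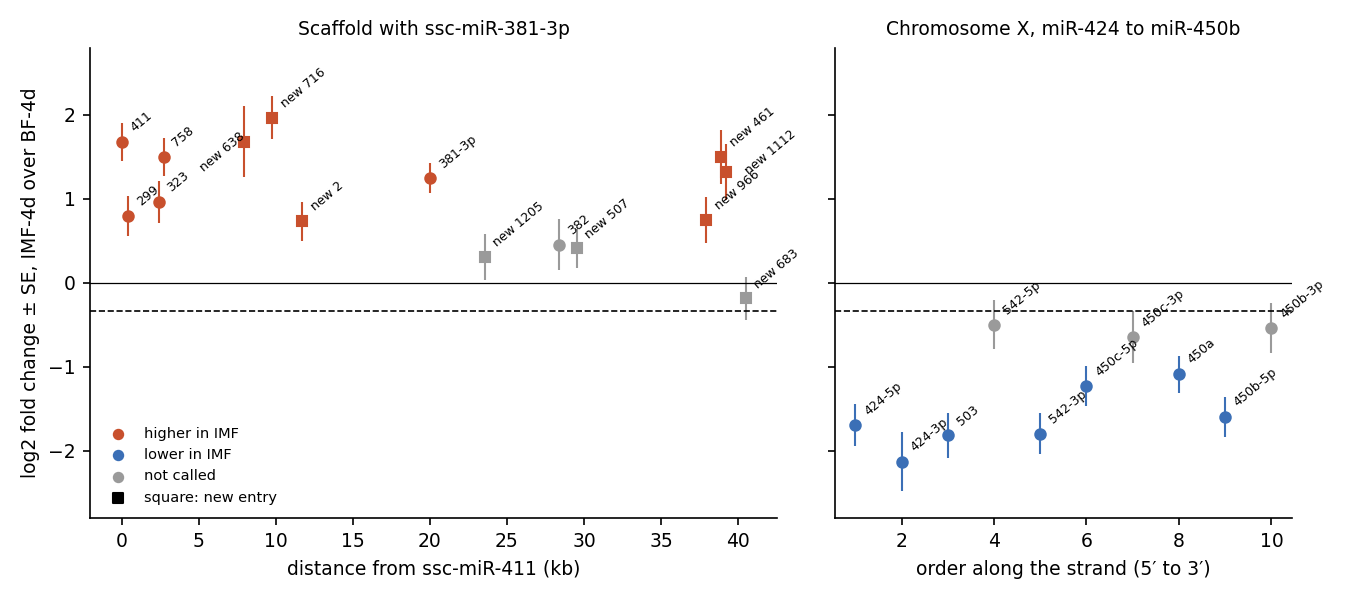
Log2 fold changes of IMF-4d over BF-4d (y axis, with the SE as bars, on the log2(TPM + 1) scale) are plotted by position for the scaffold that carries ssc-miR-381-3p (left, distance from ssc-miR-411 in kb) and by order along the strand for the cluster from miR-424 to miR-450b of chromosome X (right); squares are new entries and the dashed line is the median of all entries. With TPM, 11 of 15 entries on the scaffold were called higher (7.44% of all entries), and 7 of 10 on chromosome X were called lower (28.8% of all entries).

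With TPM, calls of genomic neighbours did not go in opposite directions. Grouping single-copy entries at most 10 kb apart on one strand gave 24 clusters, and 10 of these held 2 or more called entries. With TPM the calls went down in 8 of them, up in 2, and in both directions in 0, where 124 of all 156 calls were lower. With median-of-ratios scaling the cluster at chr10:27079461-27080227 held 1 higher and 1 lower call. Of the 8, those at chr4:6948676-6952862, chr11:60734665-60735137 and chr13:31655000-31655555 went from 3, 4 and 2 lower calls to 2, 1 and 0. The rest of the 8 kept theirs. Of the 35 single-copy entries on chromosome X, 15 were called lower and 0 higher, with either scaling, beside 28.8% of all entries lower with TPM and 15.8% with median-of-ratios scaling, and 0 were higher at an unadjusted limma p under 0.05, with edgeR or with DESeq2.

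Over all entries, 28.8% were lower with TPM and 15.8% with median-of-ratios scaling, and the counts of the families below stand beside these shares. The miR-221/222 pair of chromosome X was lower in intramuscular adipocytes in all 3 entries tested, with either scaling. ssc-miR-222, which lies at chrX:40571814-40571837, had 1060, 2056 and 2577 TPM in BF-4d and 368, 467 and 380 TPM in IMF-4d. Every IMF-4d library lay below every BF-4d library, and the log2 fold change was -2.14 ± 0.30 (limma adjusted p = 0.000280). For ssc-miR-221-3p, its neighbour with the same seed, the levels were 1326, 1325 and 2195 against 568, 469 and 593 TPM (-1.54 ± 0.25, limma adjusted p = 0.000537).

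The second X-linked group, from ssc-miR-424 to ssc-miR-450b at chrX:110381601-110387969, had 7 of 10 entries lower with either scaling (28.8% and 15.8% of all entries) and a summed level of 3349 to 5363 TPM in BF-4d against 1342 to 1522 TPM in IMF-4d. ssc-miR-424-5p, a relative of miR-16 that represses cell cycle genes, lay at 44.7, 74.3 and 53.1 against 16.9, 14.2 and 19.1 TPM (-1.70). The levels of ssc-miR-542-3p were 700, 1158 and 773 TPM in BF-4d and 228, 236 and 275 TPM in IMF-4d (-1.80 ± 0.24, limma adjusted p = 0.000280). ssc-miR-503, ssc-miR-450b-5p and ssc-miR-450c-5p gave -1.82, -1.60 and -1.23 and were called with either scaling. The third group, ssc-miR-363, ssc-miR-20b and ssc-miR-106a at chrX:110113558-110114456, was lower in all 3 entries, with -1.53, -1.32 and -1.87.

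ssc-miR-363 and its neighbours are a paralog of the miR-17-92 cluster, which drives proliferation in many cell types. Of the 10 entries of the 2 clusters tested, 9 were called lower (28.8% of all entries), but 4 after median-of-ratios scaling (15.8% of all entries), 3 of which were those on chromosome X. ssc-miR-17-5p of the chromosome 11 cluster lay at 221, 413 and 353 TPM in BF-4d and at 150, 127 and 159 TPM in IMF-4d (-1.13 ± 0.27, limma adjusted p = 0.00501), and it gave -0.71 (limma adjusted p = 0.0508) after median-of-ratios scaling. All 4 entries with the seed AAAGTGC, ssc-miR-17-5p, ssc-miR-20a-5p, ssc-miR-20b and ssc-miR-106a, were called lower with TPM.

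The pair of ssc-miR-132 and ssc-miR-212 at chr12:48162635-48163125, made from one transcript that responds to cAMP signalling, showed a larger difference. ssc-miR-212 lay at 18.9, 35.8 and 43.0 TPM in BF-4d and at 4.44, 4.70 and 3.41 TPM in IMF-4d (-2.63 ± 0.29, limma adjusted p = 0.000127). ssc-miR-132 lay at 77.2, 137 and 116 against 25.7, 29.2 and 25.5 TPM (-1.96 ± 0.26, limma adjusted p = 0.000280). The IMF-4d libraries of both miRNAs were close together and below all BF-4d libraries.

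The miR-30 family, tied to adipogenesis, had 6 of 10 entries lower (28.8% of all entries) and 0 higher, and 3 of them, ssc-miR-30b-5p, ssc-miR-30c-5p and ssc-miR-30d, remained lower after median-of-ratios scaling (15.8% of all entries). ssc-miR-30b-5p lay at 178, 565 and 569 TPM in BF-4d and at 36.0, 35.0 and 54.8 TPM in IMF-4d, with means of 437 ± 225 and 41.9 ± 11.2 TPM (SD, n = 3 each). Its log2 fold change was -3.20 ± 0.40 (limma adjusted p = 0.000232). ssc-miR-30d, its neighbour at chr4:6948676-6948699, was the most abundant of the family with 7594, 11608 and 8118 TPM against 2626, 2900 and 2500 TPM (-1.74 ± 0.21, limma adjusted p = 0.000189). ssc-miR-30e-5p, which has the same seed but lies in an intron of NFYC on chromosome 6, had 362, 372 and 345 against 314, 288 and 152 TPM. The libraries of the 2 groups did not overlap for it either, but its log2 fold change was -0.58 (limma adjusted p = 0.124).

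ssc-miR-378, the miRNA of an intron of PPARGC1B in mammals and tied to lipid metabolism, was lower in IMF-4d. Its levels were 777, 897 and 720 TPM in BF-4d and 220, 338 and 298 TPM in IMF-4d, without overlap (-1.50 ± 0.23, limma adjusted p = 0.000490). ssc-miR-210, a miRNA induced by low oxygen, lay at 140, 192 and 256 against 63.3, 55.1 and 57.6 TPM (-1.68 ± 0.26, limma adjusted p = 0.000426). The 3 miR-181 entries were all called lower with TPM, and ssc-miR-181a and ssc-miR-181b, at -1.37 and -1.76, after median-of-ratios scaling as well. ssc-miR-29b, which targets collagen messengers, lay at 98.3, 111 and 125 TPM in BF-4d and 33.6, 26.3 and 13.1 TPM in IMF-4d (-2.24 ± 0.31, limma adjusted p = 0.000280).

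The miRNAs known from inflammatory signalling differed from each other. ssc-miR-146a-5p lay at 188, 172 and 820 TPM in BF-4d and at 39.8, 34.4 and 39.8 TPM in IMF-4d (-2.94 ± 0.47, limma adjusted p = 0.000496), with the third BF-4d library far above the other 2. Without that library its log2 fold change was -2.22 (limma adjusted p = 1.92e-05). ssc-miR-155-5p lay at 649, 1128 and 826 against 301, 368 and 380 TPM (-1.28 ± 0.25, limma adjusted p = 0.00179). ssc-miR-146b, with the seed of ssc-miR-146a-5p, lay at 33.0, 51.6 and 45.2 against 41.9, 34.7 and 27.7 TPM, and these ranges overlapped (-0.30, limma adjusted p = 0.396).

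ssc-miR-138, tied to the restraint of adipogenic and osteogenic differentiation, was almost limited to BF-4d, with 38, 74 and 497 reads there and 2, 0 and 0 reads in IMF-4d. This equals 4.45, 7.83 and 44.6 TPM in BF-4d. The log2 fold change was -3.62 ± 0.57 (limma adjusted p = 0.000496), and it was -2.72 without the third BF-4d library and -4.25 without the first. The ratio of the pooled reads, BF-4d over IMF-4d, was 391 with a 95% exact interval of 108 to 3232, for counting error only, and 116 (31.5 to 972) without the third BF-4d library, which held 497 of the 609 reads. The other members of its list behaved alike: all 6 entries of miR-138, miR-140 and miR-218 tested were lower, 4 of them with both scalings, although the miR-218 entries share reads and are not separate measurements. ssc-miR-140-5p, a miRNA of mesenchymal and cartilage cells, lay at 86.4, 90.2 and 97.1 against 46.4, 45.8 and 45.3 TPM (-0.98 ± 0.21, limma adjusted p = 0.00343), and was not called after median-of-ratios scaling.

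**Figure D3:**
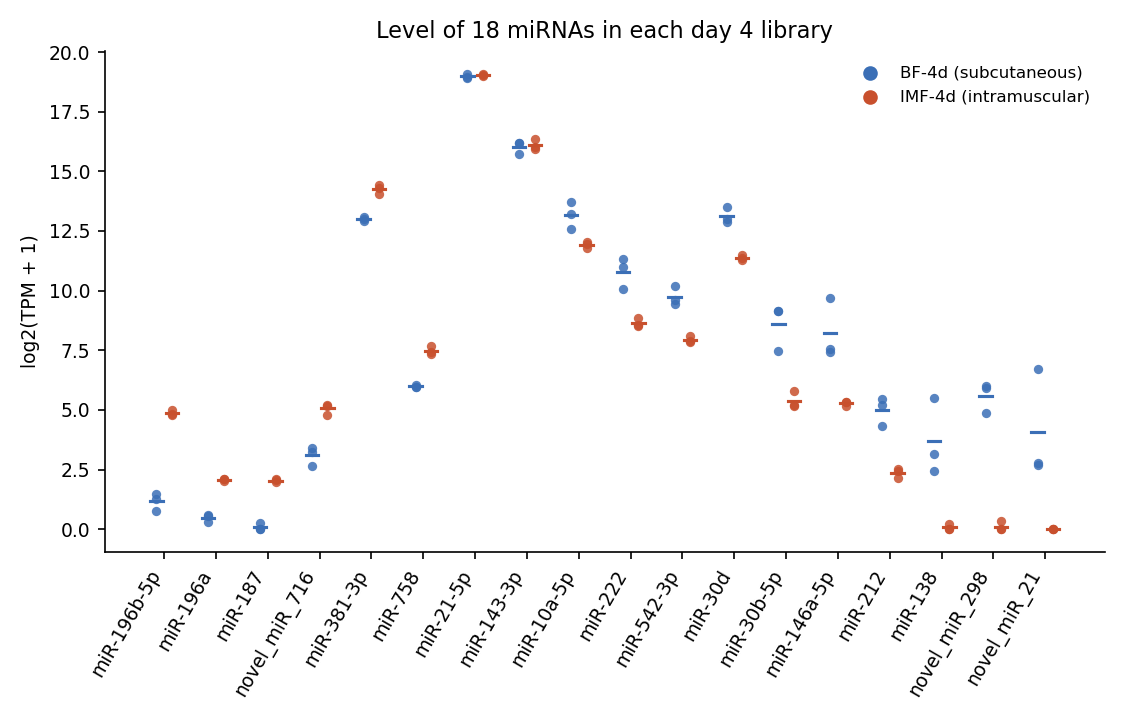
Levels of 18 miRNAs are plotted for every day 4 library on the log2(TPM + 1) scale (y axis), with BF-4d in blue, IMF-4d in orange and a bar at each group mean of 3 libraries. The groups are separate for ssc-miR-196b-5p, ssc-miR-381-3p, ssc-miR-222 and ssc-miR-30d and overlap for ssc-miR-21-5p and ssc-miR-143-3p; 1 library carries most of the BF-4d level of novel_miR_21.

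For 5 families the calls were lower alone with TPM and higher alone with median-of-ratios scaling, and no direction is given for them. Those of miR-15, miR-16, miR-195 and miR-497 and of miR-148 and miR-152 had 2 of 5 entries lower with TPM and 1 higher with the other scaling. The lists of miR-103, miR-107 and miR-26, with 4 entries, and of miR-130, miR-301 and miR-454, with 5, had 1 lower with TPM and 1 higher with the other scaling. The 6 entries of miR-199 and miR-214 had 3 lower with TPM, but 0 lower and 2 higher after median-of-ratios scaling. The lower ones include ssc-miR-199a-3p and ssc-miR-199b-3p, which overlap in sequence. Both had means of 3862 TPM in BF-4d and 2270 TPM in IMF-4d, so they are not separate measurements. ssc-miR-199a-5p lay at 6064, 5684 and 4536 TPM in BF-4d and 7089, 6174 and 6047 TPM in IMF-4d, giving 0.25 with TPM (limma adjusted p = 0.339) and 0.68 with the other scaling (limma adjusted p = 0.0166). ssc-miR-199b-5p, of the same seed, lay at 12091, 17214 and 11751 against 7252, 6566 and 7771 TPM, giving -0.91 ± 0.20 with TPM (limma adjusted p = 0.00307) and -0.48 with the other scaling (limma adjusted p = 0.0670).

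Of the let-7 family, 4 of 11 entries were lower with TPM and 1 with both scalings, beside 28.8% and 15.8% of all entries. That one, ssc-let-7a, lay at 2975, 2620 and 2772 against 1243, 1057 and 1406 TPM (-1.18 ± 0.20, limma adjusted p = 0.000874), while ssc-let-7i-5p, of the same seed, lay at 60388, 53367 and 61555 against 70284, 59445 and 58384 TPM.

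**Figure D4:**
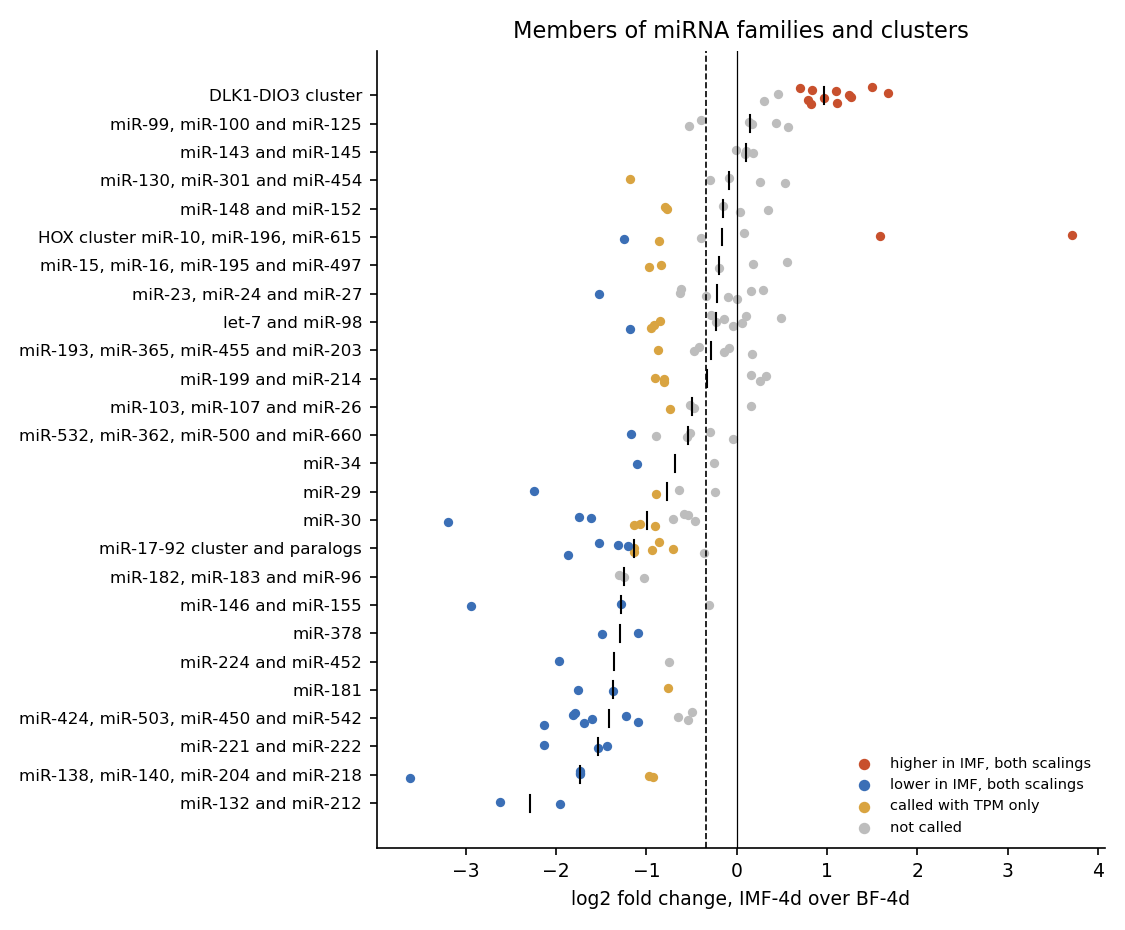
Each point is 1 entry of a miRNA family or cluster (rows) at its log2 fold change of IMF-4d over BF-4d on the log2(TPM + 1) scale (x axis), coloured by its call with TPM and with median-of-ratios scaling; black ticks are family medians and the dashed line is the median of all entries. DLK1-DIO3 lies to the right with a median of 0.96, and miR-132 and miR-212 lie farthest to the left with -2.29.

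Of 59 hairpins with both arms tested, 47 had the same sign in both arms, 37 of them negative, in data where 73.3% of all entries were negative. With median-of-ratios scaling, where 50% were, 46 had the same sign. In 10 hairpins both arms were called with TPM, all 10 in the same direction, and in 21 a single arm was. The median distance between the arms was 0.40 on the log2 scale. The widest was 2.12, for miR-30b, whose 5p arm lay at -3.20 and whose scarce 3p arm lay at -1.08.

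Among the new entries 17 of 160 were called higher and 25 lower with TPM, beside 7.44% and 28.8% of all entries, but 21 higher and 14 lower with median-of-ratios scaling, beside 12.1% and 15.8%. Their median log2 fold change was -0.20 with TPM and 0.12 with the other scaling. The most negative log2 fold change of all entries was that of novel_miR_298, for which no sequence was used here, with 28.3, 59.6 and 62.4 TPM in BF-4d and 0.266, 0 and 0 TPM in IMF-4d. Its log2 fold change was -5.48 ± 0.30 (limma adjusted p = 9.83e-08). It had 1500 reads in BF-4d and 3 in IMF-4d, and the ratio of the pooled reads per depth was 641 with a 95% exact interval of 219 to 3113 that covers counting error only and not the spread between the 3 BF-4d libraries.

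A group of entries rested largely on 1 library. In the first BF-4d library 10 entries of at least 5 TPM lay more than 5 times above both other libraries of the group, 8 of them new and 6 of them called, beside 3 such entries in the third BF-4d library, 1 in the first IMF-4d library and 0 in the remaining 3. novel_miR_21 lay at 105, 5.39 and 5.83 TPM in BF-4d and at 0 in IMF-4d. It was at least 156-fold lower in IMF-4d, against a floor of 3 reads per library (at least 22.7-fold without the first BF-4d library), and its log2 fold change of -4.06 (limma adjusted p = 0.00179) became -2.72 (limma adjusted p = 7.52e-07) without that library and -4.75 and -4.70 without BF-4d replicates 2 and 3. For novel_miR_623, novel_miR_848 and ssc-miR-10386 the values -3.72, -2.73 and -2.62 became -2.54, -1.46 and -1.60 without BF-4d replicate 1. They became more negative without another library, with -4.42 for novel_miR_623 and -3.37 for novel_miR_848 without BF-4d replicate 2, and -3.35 for novel_miR_848 and -3.27 for ssc-miR-10386 without BF-4d replicate 3, and novel_miR_848 lost its call without IMF-4d replicate 3 (-2.73). DESeq2 gave no adjusted p for novel_miR_21, novel_miR_623 and novel_miR_848, so that their calls have no check by that tool. The 3 entries of the third library were ssc-miR-138, ssc-miR-96-5p and ssc-miR-183, and ssc-miR-183 (110, 151 and 894 against 75.9, 147 and 98.6 TPM) was not called (limma adjusted p = 0.124).

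The lists of markers of other cells that the cultures could hold had no entry called higher in IMF-4d with TPM. The skeletal muscle list summed to 1043 to 1526 TPM in BF-4d and to 696 to 985 TPM in IMF-4d, with 3 of its 7 entries tested and 0 called by limma, by edgeR or by DESeq2, although 2 had an unadjusted limma p under 0.05. ssc-miR-499-5p averaged 12.5 ± 3.12 TPM in BF-4d and 13.8 ± 2.39 TPM in IMF-4d (SD, n = 3 each), with overlapping libraries (0.15, limma adjusted p = 0.694). Nearly all of it was ssc-miR-1 (1500, 1011 and 1099 against 818, 672 and 959 TPM, limma adjusted p = 0.0835), while ssc-miR-206 had a mean of 0 TPM in BF-4d and 0.319 TPM in IMF-4d and ssc-miR-499-3p was at 0 in both. Of the endothelial list 1 of 2 entries was lower with either scaling, with sums of 53.6 to 86.4 TPM against 18.7 to 30.9 TPM. That entry, ssc-miR-126-3p, lay at 83.5, 51.7 and 65.4 against 30.5, 18.0 and 27.7 TPM (-1.37 ± 0.27, limma adjusted p = 0.00207). It moved in the direction of the lower miRNAs above, and its part in them was not tested.

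Blood and epithelial markers were near the detection limit. The red blood cell list summed to 1.52 to 3.77 TPM in BF-4d and to 0.284 to 0.772 TPM in IMF-4d, and its 1 tested entry of 3, ssc-miR-486 (1.29, 1.80 and 1.44 against 0.621, 0.0644 and 0.284 TPM), was lower with TPM (-0.94, limma adjusted p = 0.0188) but not called after median-of-ratios scaling or without BF-4d replicate 2 (-0.86), IMF-4d replicate 2 (-0.79) or IMF-4d replicate 3 (-0.93). None of the white blood cell entries passed the level limit, with sums of 0.529 to 2.60 against 0.379 to 0.888 TPM, and the defining ssc-miR-150 and ssc-miR-223 were at 0. The epithelial sums were 0.0898 to 0.468 against 0.193 to 0.757 TPM, with ssc-miR-141 and ssc-miR-429 at 0. Of the 12 fibroblast or mesenchymal entries, which preadipocytes share, 3 were lower with TPM (28.8% of all entries) and 2 higher with median-of-ratios scaling (12.1% of all entries), shares near those of all entries, and no miRNA of the lists marks adipocytes alone. The lower ones again include ssc-miR-199a-3p and ssc-miR-199b-3p, which are not separate measurements.

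The day 4 difference was then set against that of the same cells on days 0, 2 and 8. Each contrast was tested itself, in 1 limma fit over the 24 libraries with a Benjamini-Hochberg adjusted p under 0.05, and all 3 contrasts share the 6 day 4 libraries. The difference of IMF minus BF was not the same on day 4 as on day 0 for 79 entries (18.4%), as on day 2 for 33 (7.67%) and as on day 8 for 53 (12.3%). Of these, 10 (2.33% of all entries), 2 (0.465%) and 9 (2.09%) were positive, that is, further towards IMF on day 4. With median-of-ratios scaling the counts were 88 (20.5%), 19 (4.42%) and 46 (10.7%), of which 33, 5 and 13 were positive. Called the same way with both scalings were 65 (15.1%), 16 (3.72%) and 42 (9.77%). The count against day 2 was unstable: it was 7 in a fit of the 12 libraries of both days, 11 with edgeR and 12 to 64 when a library was left out (12 without BF-2d replicate 3 and 64 without BF-4d replicate 1).

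On the other days by themselves, 126 (29.3%), 53 (12.3%) and 160 (37.2%) entries differed between the sources by the rule of day 4, of which 58, 25 and 52 were higher in IMF and 68, 28 and 108 lower. With median-of-ratios scaling they were 103 (24%), 60 (14%) and 151 (35.1%), with 67, 36 and 82 higher and 36, 24 and 69 lower, so that on each of these days the balance moved towards higher calls. Of the 32 entries higher in IMF on day 4, 28 were called higher on day 0, 18 on day 2 and 31 on day 8 (29, 23 and 32 with median-of-ratios scaling), and 0 were called lower on any of these days with either scaling. Their difference was smaller on day 4 than on day 0 for 7 of the 32 and than on day 8 for 15 (4 and 10 with median-of-ratios scaling), and larger than on day 0 for 2 and than on day 2 for 2 (2 and 3 with median-of-ratios scaling). Of the 124 lower ones, 40, 25 and 77 were called lower on days 0, 2 and 8, and 4, 0 and 1 were called higher. With median-of-ratios scaling 22, 23 and 53 of them were called lower and 6, 0 and 3 higher. The difference itself was more negative on day 4 than on those days for 47, 25 and 19 of the 124 (41, 12 and 16 with median-of-ratios scaling), and less negative for 0, 0 and 3 (1, 0 and 4 with median-of-ratios scaling). Over all entries the contrast was negative for 69 (16%), 31 (7.21%) and 44 (10.2%), and with median-of-ratios scaling for 55 (12.8%), 14 (3.26%) and 33 (7.67%). Both sets were chosen by their difference in the same day 4 libraries, which favours a larger difference on day 4, so these counts are a description only. All 21 DLK1-DIO3 entries by position were called higher on day 0 and on day 8, and 9 were on day 2 (21, 21 and 15 with median-of-ratios scaling). Their difference was smaller on day 4 than on day 8 for 13 of the 21 and than on day 0 for 6 (11 and 3 with median-of-ratios scaling), and it was larger than on day 2 for 1 (2 with median-of-ratios scaling).

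ssc-miR-196b-5p kept its difference over time. Its means (SD, n = 3) were 1.55 ± 0.324, 1.08 ± 0.402, 1.29 ± 0.551 and 1.53 ± 0.357 TPM in BF on days 0, 2, 4 and 8, and 32.0 ± 4.98, 27.5 ± 1.29, 28.4 ± 2.34 and 45.7 ± 7.49 TPM in IMF. The day 4 difference departed from those of days 0, 2 and 8 by 0.02, -0.08 and -0.50 on the log2 scale, with limma adjusted p-values of 0.983, 0.945 and 0.308. ssc-miR-381-3p was likewise higher in IMF on each day, but its difference was smaller on day 4 than on day 0 (-0.92 ± 0.25, limma adjusted p = 0.0118, not called after median-of-ratios scaling) and day 8 (-1.07 ± 0.25, limma adjusted p = 0.00493).

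Other miRNAs were lower in IMF on day 4 without being so at the start. ssc-miR-210 had means of 17.8 ± 2.39, 62.8 ± 21.1, 196 ± 57.9 and 498 ± 103 TPM in BF on days 0, 2, 4 and 8, and of 67.9 ± 8.60, 61.2 ± 4.66, 58.7 ± 4.20 and 258 ± 44.1 TPM in IMF. It was thus higher in IMF on day 0 and lower on days 4 and 8, and the day 4 difference departed from that of day 0 by -3.55 ± 0.33 (limma adjusted p = 8.90e-09). ssc-miR-222 had means of 471 ± 71.0, 467 ± 95.4, 1898 ± 771 and 1602 ± 695 TPM in BF and of 502 ± 133, 355 ± 35.5, 405 ± 53.9 and 624 ± 220 TPM in IMF. Its day 4 difference departed from those of days 0 and 2 by -2.21 ± 0.42 and -1.76 ± 0.42 (limma adjusted p = 0.000579 and 0.00985), but from that of day 8 by -0.82 (limma adjusted p = 0.249). ssc-miR-129b lay at 2608, 4148 and 5987 against 1297, 1853 and 1532 TPM on day 4 (-1.38 ± 0.28, limma adjusted p = 0.00234) and departed from day 0 by -2.42 ± 0.39 (limma adjusted p = 5.58e-05).

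Some of the low day 4 levels of IMF were no longer so on day 8. ssc-miR-146a-5p had a mean of 38.0 ± 3.14 TPM in IMF on day 4 and of 742 ± 220 TPM on day 8, beside 393 ± 369 and 562 ± 90.0 TPM in BF. Its day 4 difference departed from that of day 8 by -3.32 ± 0.54 (limma adjusted p = 0.000209), and by -2.59 without BF-4d replicate 3. ssc-miR-452, which with ssc-miR-224 lies in an intron of GABRE on chromosome X, had 1.66 ± 1.18 TPM in IMF on day 4 and 26.8 ± 3.61 TPM on day 8, beside 9.47 ± 4.33 and 19.3 ± 8.01 TPM in BF. ssc-miR-30b-5p was still lower in IMF on day 8, with a log2 fold change of -0.92 (limma adjusted p = 0.000599), but by less than on day 4 (-2.28 ± 0.47 for the departure, limma adjusted p = 0.00219). novel_miR_298 had 2.31 ± 1.61, 50.1 ± 18.9 and 105 ± 47.3 TPM in BF on days 2, 4 and 8, and 22.6 ± 1.94 TPM in IMF on day 8 alone, with IMF means under 1 TPM on the days before.

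**Figure D5:**
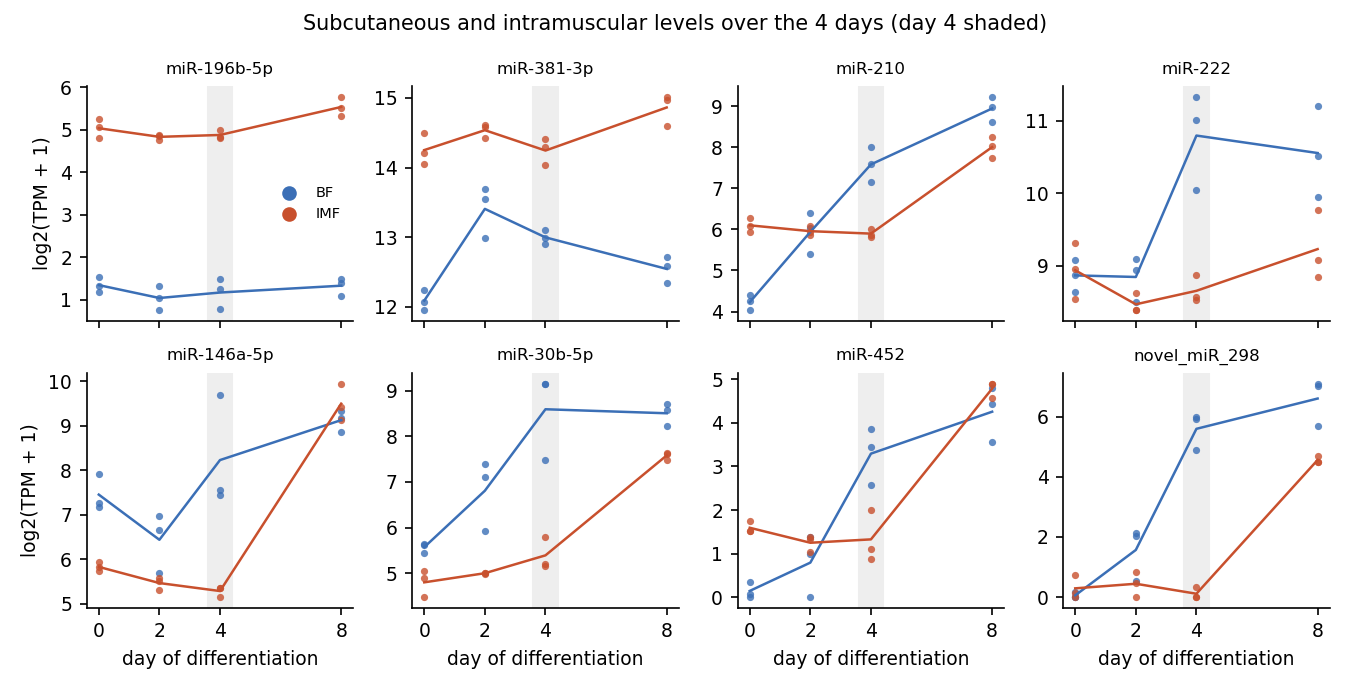
Levels of 8 miRNAs are plotted on the log2(TPM + 1) scale (y axis) against the day of differentiation (x axis, days 0, 2, 4 and 8), with points for the 3 libraries of a group, lines through the group means, BF in blue, IMF in orange and day 4 shaded. The gap of ssc-miR-196b-5p is there on every day, that of ssc-miR-222 opens between days 2 and 4, and the IMF level of ssc-miR-146a-5p reaches that of BF on day 8.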

How the data were processed

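Small RNA libraries of primary pig adipocytes were compared between BF-4d and IMF-4d, with 3 libraries each. The authors removed other small RNAs, aligned reads to Sscrofa11.1 with Bowtie, assigned known miRNAs by miRBase and predicted new ones with miRDeep2, and they deposited read counts per 1000000 miRNA reads (RPM, which they call TPM). Whole reads were recovered from them: all 38088 values lay within 0.01 of a whole read. The 6 libraries held 8538813, 9453473 and 11142010 (BF-4d) and 11263233, 15536269 and 10567876 (IMF-4d) miRNA reads, so that 1 TPM is about 10 reads. No 2 replicates agreed within sampling noise.

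Entries that averaged 1 TPM or more were tested with limma 3.58.1 (trend) in R 4.3.3 on log2(TPM + 1), without covariates. Fold changes are on this scale and understate those of low entries. edgeR 4.0.16 and DESeq2 1.42.0 on recovered reads, median-of-ratios scaling, other filters and pseudocounts, left-out libraries, a replicate block and a merging of entries with one mature sequence or with equal values in all 24 libraries were alternatives. Median-of-ratios scaling of the other days' counts was added after seeing the data. Scripts were tested on simulated data.

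Mature sequences came from the study's list, and positions from exact matches to Sscrofa11.1 with its RefSeq annotation. Named were known entries with the 12 largest, and new ones with the 6 largest, called differences of each sign whose libraries did not overlap, the 10 most abundant entries, members of listed families and markers, the study's key miRNAs and the 6 largest called differences of each sign between days. Members and lists were chosen with earlier results of these data known.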

Additional observations from a re-analysis of the deposited data

Results flagged for a closer look

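For 32 pairs of an entry and another day, the difference of IMF minus BF on day 4 departed from that of the other day in the test of the departure itself (limma over the 24 libraries, Benjamini-Hochberg adjusted p under 0.05, 3 libraries per group). They are the 6 most negative and up to 6 most positive of each contrast, and negative values mean a difference further towards BF on day 4. The 3 contrasts share the 6 day 4 libraries.

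Against day 0 the most negative values were -5.71 for novel_miR_298, -4.06 for novel_miR_21, -3.72 for novel_miR_623, -3.55 for ssc-miR-210, -3.42 for ssc-miR-452 and -3.20 for ssc-miR-146b. Those of novel_miR_21 and novel_miR_623 were -2.72 and -2.54 without BF-4d replicate 1, and -4.75 and -4.42 without BF-4d replicate 2. ssc-miR-146b was higher in IMF on day 0 (42.6 ± 8.88 against 4.84 ± 1.24 TPM in BF, SD, n = 3) and overlapped on day 4. The most positive values were 1.68 for ssc-miR-187, 1.67 for ssc-miR-99a-3p, 1.43 for ssc-miR-27b-3p, 1.31 for ssc-miR-99a-5p, 1.17 for novel_miR_484 and 1.13 for ssc-miR-214-3p. That of novel_miR_484 lost its call without BF-0d replicate 2 (0.96), BF-4d replicate 3 (0.86), IMF-0d replicate 1 (1.11) or IMF-4d replicate 1 (1.12). ssc-miR-27b-3p was lower in IMF on day 0, with 6889 ± 497 against 15233 ± 640 TPM, and had 8900 ± 2496 against 7138 ± 816 TPM on day 4.

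Against day 2 the values were -4.36 for novel_miR_298, -3.60 for novel_miR_21, -3.28 for novel_miR_623, -2.71 for ssc-miR-96-5p, -2.57 for novel_miR_848 and -2.45 for ssc-miR-10386. Positive were 1.35 for ssc-miR-187 and 1.03 for novel_miR_716. The first BF-4d library held most of the day 4 reads of novel_miR_21, novel_miR_623, novel_miR_848 and ssc-miR-10386, and the third most of those of ssc-miR-96-5p. Without BF-4d replicate 1 the former 4 became -2.26, -2.10, -1.30 and -1.43, and without BF-4d replicate 3 ssc-miR-96-5p became -1.75, all still called, and without BF-4d replicate 2 novel_miR_21, novel_miR_623 and novel_miR_848 became -4.29, -3.98 and -3.22. The call of novel_miR_848 was lost without any single BF-2d, IMF-2d or IMF-4d library (-2.73 to -2.50), that of ssc-miR-10386 without replicate 1 or 3 of BF-2d or IMF-2d or any IMF-4d library (-2.52 to -2.26), and that of novel_miR_716 without any BF-2d or IMF-2d library, BF-4d replicate 3 or IMF-4d replicate 2 or 3 (0.81 to 1.11).

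Against day 8 the most negative values were -3.44 for novel_miR_298, -3.32 for ssc-miR-146a-5p, -2.50 for ssc-miR-452, -2.28 for ssc-miR-30b-5p, -2.16 for ssc-miR-24-2-5p and -2.04 for ssc-miR-486. That of ssc-miR-146a-5p was -2.59 without BF-4d replicate 3. The most positive, all new entries, were 3.25 for novel_miR_848, 2.69 for novel_miR_1222, 2.59 for novel_miR_994, 2.55 for novel_miR_744, 2.31 for novel_miR_266 and 2.19 for novel_miR_783. The direction was not settled for novel_miR_848, novel_miR_744 and novel_miR_266, whose values were negative with both DESeq2 (-0.85, -0.90 and -0.33) and edgeR (-1.48, -1.65 and -1.03). Their limma values were 4.52, 3.66 and 3.39 without BF-4d replicate 1, and that of novel_miR_848 was 2.60 and 2.62 without BF-4d replicates 2 and 3. The sequence of novel_miR_1222 matched the genome at 237 positions. novel_miR_744 and novel_miR_266 lost their calls without BF-4d replicate 2 (1.91 and 1.78), BF-4d replicate 3 (2.06 and 1.76) or BF-8d replicate 2 (2.23 and 2.07). No cause was tested for any of these.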

How the results depend on the processing

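The count of 156 DE-miRNAs on day 4 stayed within 1.5 times in every alternative. This compares counts and not shares, because another level limit or a merging of entries changes how many entries were tested. It was 165 with a pseudocount of 0.1 TPM, 141 without the level limit, 114 at a limit of 10 TPM, 120 with median-of-ratios scaling, 154 without ssc-miR-21-5p, 116 with edgeR, 127 with DESeq2, 151 with entries of one sequence or of equal values in all 24 libraries merged and 183 in 1 fit of 24 libraries, and 123 to 171 when a library was left out. Of the 156, 79 were called in every alternative that gave them an adjusted p, 107 in all 6 fits without a library, and 0 turned sign. Of the 75 single entries named for day 4, 60 kept their side of the threshold in every alternative that gave them an adjusted p.

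The count of 79 against day 0 ran from 61 to 88 without a library. The count of 33 against day 2 was the least stable: 7 in a fit of 12 libraries, 18 without ssc-miR-21-5p, 11 with edgeR, 19 with median-of-ratios scaling and 15 without the level limit. Leaving out a library gave 12 (BF-2d replicate 3) to 64 (BF-4d replicate 1), with 18 without BF-4d replicate 3, 20 and 17 without IMF-2d replicates 1 and 3, and 21 without IMF-4d replicate 2 or 3. The count of 53 against day 8 was 34 with edgeR and 30 at a limit of 10 TPM, and 36 to 70 without a library.

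Replicate numbers are shared by the groups. The deviations of same-numbered libraries correlated at 0.14, 0.26 and -0.05. The former 2 were the highest of all 9 correlations, but the third pair did not deviate together, and the labels name no piglet for a library, so whether the numbers pair the libraries is not known. With the replicate number as a block the counts were 161 on day 4, and 78, 36 and 52 against days 0, 2 and 8.

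Against day 8, novel_miR_848, novel_miR_744 and novel_miR_266 reversed, to -0.85, -0.90 and -0.33 with DESeq2 and to -1.48, -1.65 and -1.03 with edgeR; the cause was not tested. Of the 32 departures between days, 16 kept their side in every alternative and 30 with median-of-ratios scaling, the exceptions being novel_miR_848 and ssc-miR-10386 against day 2. Depth limits entries near 1 TPM most, where a library holds about 10 reads.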
